A study of Mus musculus with 5 samples.

Results

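The 8 genes described here encode the interleukin 7 receptor chain Il7r, the common γ chain Il2rg, the kinases Jak1 and Jak3, the transcription factors Stat5a and Stat5b, and the kinases Pim1 and Pim2. They were taken by symbol from the platform's probe annotation, with every probe set that carries a single symbol. Of the 8 genes, 7 had such a probe set, 13 probe sets in all of 45037 without controls. Il2rg has none in that annotation and was not analysed here. Of the 13 probe sets, 11, from all 7 genes, passed the filter on dim signals and were tested. A further 2 probe sets are annotated to Jak3 and Insl3 together and are described apart.

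Interleukin 7 is made by stromal cells and binds a receptor of Il7r and the common γ chain. Il7r holds Jak1 and the γ chain holds Jak3, and the activated kinases phosphorylate Stat5a and Stat5b, which enter the nucleus and switch on genes of survival and growth, Pim1 among them. In mice this signal is needed for pro-B cells to survive and divide. Il7r is also carried by T cells and innate lymphoid cells, in lung as elsewhere, and pairs with Crlf2 to bind the epithelial cytokine Tslp.

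The arrays were labelled as B220+ cells, enriched with magnetic beads from the bone marrow of mice 4 weeks old on the FVB background. The 3 KA/KA arrays came from mice with both copies of the IKKα gene replaced by a kinase-dead form (IKKαK44A/K44A), and the 2 WT arrays from littermate controls. IKKα is a kinase that activates NF-κB transcription factors. No treatment was given, the knock-in is not limited to B cells, and nothing in the labels tells a single animal from pooled animals. Test results therefore measure the spread between these arrays, and their number limits the precision.

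The labels and the signals disagreed for 3 of the 5 arrays. The arrays labelled KA/KA 1 and WT 1 carried early B-lineage transcripts, with 63899 and 74003 as the summed signal of 11 marker genes, and almost no lung epithelial signal (1019 and 1226 over 10 genes). For KA/KA 2, KA/KA 3 and WT 2, the sums were 4306, 4736 and 2363 over the same B-lineage genes and 173855, 185615 and 118472 over the lung genes. On those 3 arrays 6 of the 11 B-lineage genes, Rag1 among them, stayed under 7 on the log2 scale. Ptprc, the gene of CD45, of which B220 is 1 form, was read on all 5 arrays (13.6 to 13.7 on the first pair, and 12.6, 13.5 and 11.9 on KA/KA 2, KA/KA 3 and WT 2). White blood cells at large carry CD45, so this reading does not single out B220+ cells. The split used below was made on poly-A control probe sets, and the marker sums fell the same way. On KA/KA 1 and WT 1 the median signal of these controls was 11897 and 7305. It was 136, 249 and 47 on KA/KA 2, KA/KA 3 and WT 2. Differences in sample handling that go with these controls cannot be told apart from those of tissue. The first pair is called marrow-like below and the other 3 arrays lung-like, and these sets are not groups of the study. The genotype of the lung-like arrays was not checked from the signals, so every KA/KA and WT difference among them rests on labels whose tissue the signals contradict. All levels are log2(signal + 16), a scale with its floor at 4, and all differences are in log2 units. Fewer cells of a type and less RNA per cell cannot be told apart.

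Promoter sequence is shown for Il7r and Pim1, the members that stood furthest apart between the KA/KA and WT lung-like arrays, with a stretch of Cish, a feedback inhibitor that STAT5 switches on. All are from RefSeq (GRCm38.p6), read 5′ to 3′ on the gene's strand, and the first 2 give the 250 bases before the annotated start, with capitals for TTCNNNGAA, the palindrome that STAT5 binds. The Il7r stretch lies at chr15:9529877-9530126 on the minus strand, that of Pim1 at chr17:29490535-29490784 on the plus strand and that of Cish at chr9:107296659-107296678 on the plus strand.
Il7r: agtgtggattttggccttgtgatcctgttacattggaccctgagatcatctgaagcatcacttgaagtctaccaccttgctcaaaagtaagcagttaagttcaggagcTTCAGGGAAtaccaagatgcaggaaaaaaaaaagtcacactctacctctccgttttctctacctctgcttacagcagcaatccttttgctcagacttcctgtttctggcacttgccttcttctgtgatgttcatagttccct
Pim1: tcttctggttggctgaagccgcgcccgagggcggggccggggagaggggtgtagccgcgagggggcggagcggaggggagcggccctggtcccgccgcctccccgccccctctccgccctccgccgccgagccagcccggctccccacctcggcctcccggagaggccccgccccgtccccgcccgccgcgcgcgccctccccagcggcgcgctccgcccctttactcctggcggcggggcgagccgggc
Cish: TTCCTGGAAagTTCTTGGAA
Il7r holds 1 such palindrome, TTCAGGGAA, beginning 142 bases before the start, and Cish holds TTCCTGGAA and TTCTTGGAA within its first 20 transcribed bases. The Pim1 stretch holds none and is rich in G and C (82.4%, against 44% for Il7r and a median of 52.4% over 32851 promoter windows). Another annotated start of Pim1, not printed, also held none and had 48% G and C.

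Across the 11 promoter windows of the 8 genes (250 bases before to 50 after a start), TTCNNNGAA occurred in 1, where 8.30% of all 32851 windows held it. Because the motif is a palindrome, either strand gives the same matches. The NF-κB consensus, searched on both strands because the mutated kinase acts on that pathway, occurred in 1 of the 11 windows, a Stat5a start, against 4.51% of all windows. No overlap between these motifs was present in the members' windows. Such matches describe letters, not binding.

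**Figure D1:**
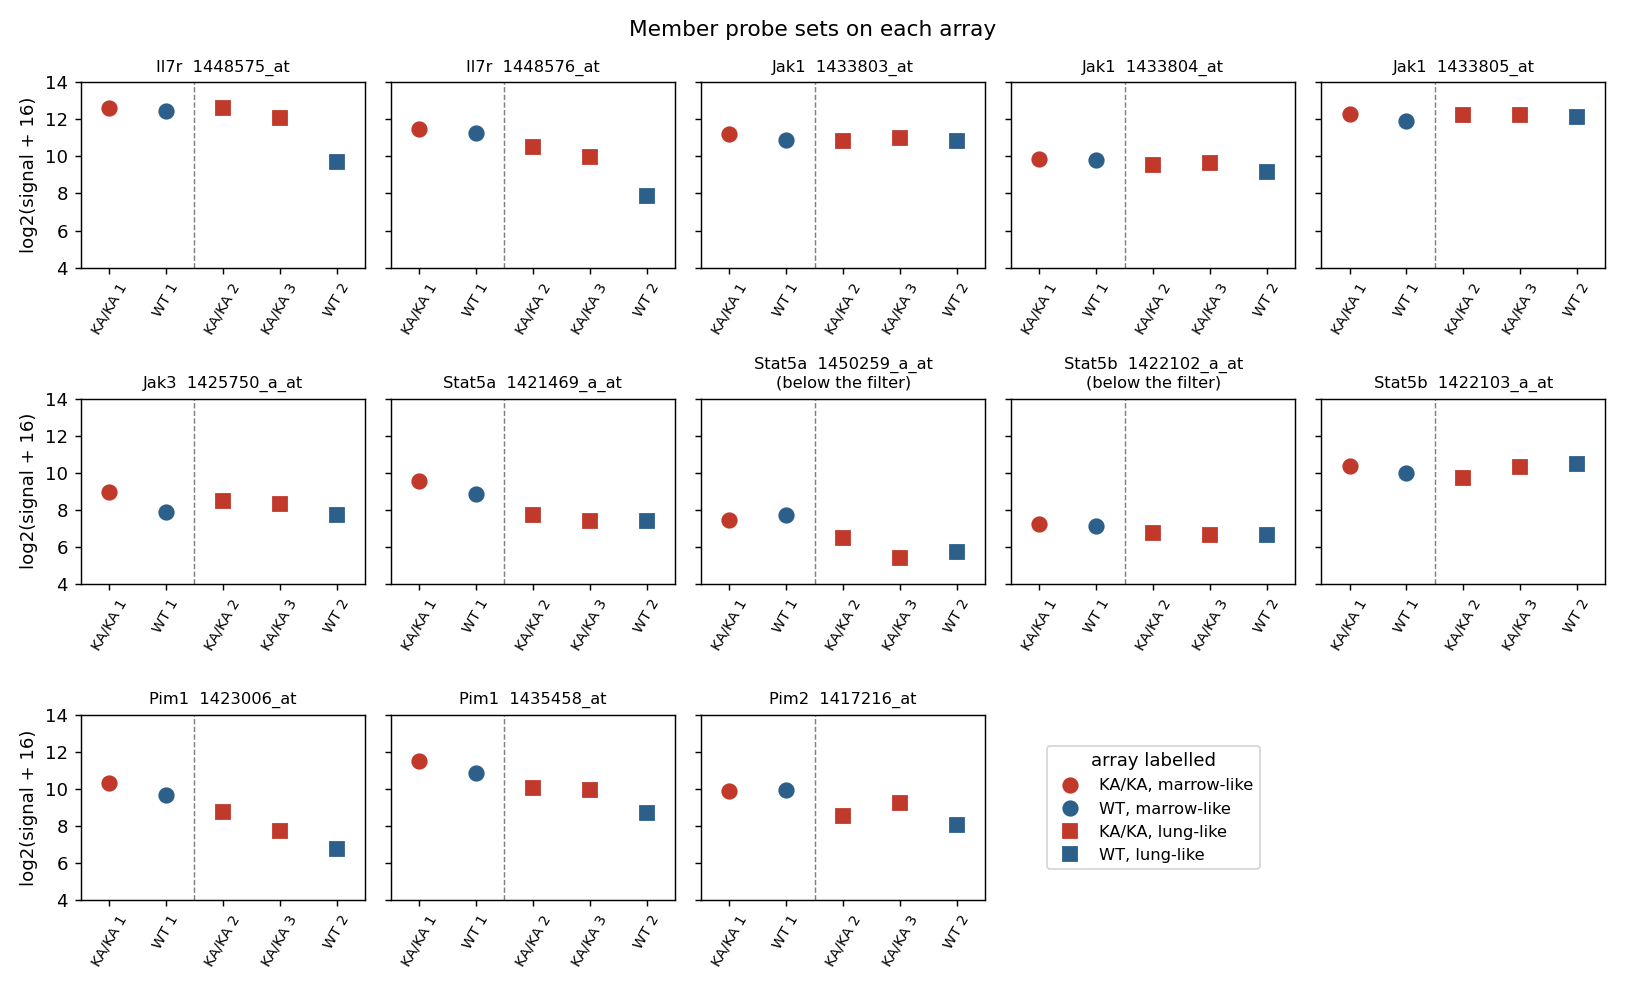
Level, log2(signal + 16), of each of the 13 probe sets on the 5 arrays; circles are marrow-like and squares lung-like arrays, red KA/KA and blue WT, 1 point per array. Il7r 1448575_at sits at 12.09 or above on 4 arrays and at 9.70 on the array labelled WT 2, while each Jak1 probe set spans less than 1 log2 unit.

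Il7r, the chain that gives the receptor its specificity, was high on 4 arrays and lower on the array labelled WT 2. Both of its probe sets still lay above the median level of WT 2 (7.17). Its probe set 1448575_at read 12.62 on KA/KA 1 and 12.47 on WT 1 in the marrow-like pair, which as signals were 6292 and 5647. On the lung-like arrays it read 12.63 and 12.09 on KA/KA 2 and KA/KA 3, against 9.70 on WT 2 (signals of 6310 and 4336, against 815). On this probe set the KA/KA lung-like arrays therefore lay beside the marrow-like pair, and WT 2 alone lay apart. The second probe set, 1448576_at, read 11.46 and 11.24 on KA/KA 1 and WT 1, and 10.51 and 9.98 on KA/KA 2 and KA/KA 3, against 7.84 on WT 2. There WT 2 was again lowest, but KA/KA 2 and KA/KA 3 also lay below the marrow-like pair.

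Inside the lung-like set, the mean of KA/KA 2 and KA/KA 3 exceeded WT 2 by 2.66 (6.31-fold) for 1448575_at and by 2.40 (5.28-fold) for 1448576_at. In the marrow-like pair KA/KA 1 exceeded WT 1 by only 0.16 and 0.21. The test of the difference between these differences (limma, set by genotype) gave -2.50 ± 0.54 and -2.19 ± 0.59 (± SE, marrow-like minus lung-like), which did not pass (adjusted p = 0.824 for each). No probe set passed this test (0% of 22519), and 2 of the 11 member probe sets, both of Il7r, had an unadjusted p under 0.05, as did 5.88% of all. That fit has 1 residual degree of freedom, from KA/KA 2 and KA/KA 3, so the 3 lone arrays are assumed to vary as that pair does. With the array set in the model, KA/KA minus WT over the 5 arrays was 1.59 ± 0.56 for 1448575_at and 1.46 ± 0.50 for 1448576_at. Neither passed (limma, adjusted p = 0.9996 for each). The lung-like difference is set against WT 2 alone, and the spread of WT lung-like arrays cannot be estimated from it.

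Markers of some blood cell types were higher, and of others not, on the lung-like arrays where Il7r was high. T cell genes were higher on KA/KA 2 and KA/KA 3 than on WT 2 for 10 of 10 measured, with summed signals of 4530 and 10708, against 2234; Cd4 and Trat1 stayed under 7 on all 3. Of the monocyte and macrophage genes, 8 of 8 were higher (88668 and 67930, against 28903) and of the neutrophil genes 4 of 7, with 1 lower (31898 and 70219, against 5884). NK and innate lymphoid genes were higher for 1 of 6 and lower for 4 (2461 and 3239, against 3461), and early B-lineage genes for 3 of 11, with 3 lower. Endothelial genes were lower on both KA/KA arrays for 4 of 5 (5507 and 24017, against 32019) and heart muscle genes for 4 of 4 (1140 and 7630, against 33944). Lung epithelial genes were higher for 6 of 10 and lower for 3. Dendritic cell genes were higher for 2 of 6 and lower for 1 (8324 and 6861, against 2278). Erythroid genes were higher for 1 of 3 and lower for 1, and fibroblast and smooth muscle genes higher for 0 of 5 and lower for 2. Of all tested probe sets, 33.5% were above WT 2 on both KA/KA arrays and 36.3% below. Keratinocyte genes summed to 34283 on KA/KA 2 and 133 on KA/KA 3, against 167 on WT 2. Their part in the Il7r difference was not tested. In the marrow-like pair the T cell sums were 1914 on KA/KA 1 and 3770 on WT 1, and the macrophage sums 52470 and 57169. The 7 neutrophil genes summed to 113490 on KA/KA 1 and 171908 on WT 1, above the early B-lineage sums of that pair. The part of neutrophil transcripts in the differences between the array sets was not tested.

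By profile over the 5 arrays, the genes closest to Il7r 1448575_at were Pirb, Kcnn4 and C1qa. Likeness was measured as the root mean square difference of values centred on each gene's mean, which was 0.0816 for Pirb, an inhibitory receptor of myeloid and B cells. It was 0.0869 for Kcnn4, a calcium-activated potassium channel, and 0.182 for C1qa, a subunit of complement C1q made by macrophages. Pirb read 10.62 and 10.49 on KA/KA 1 and WT 1, and 10.82 and 10.07 on KA/KA 2 and KA/KA 3, against 7.84 on WT 2. These 5 arrays fall into 2 sets, so the closeness describes them alone.

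**Figure D2:**
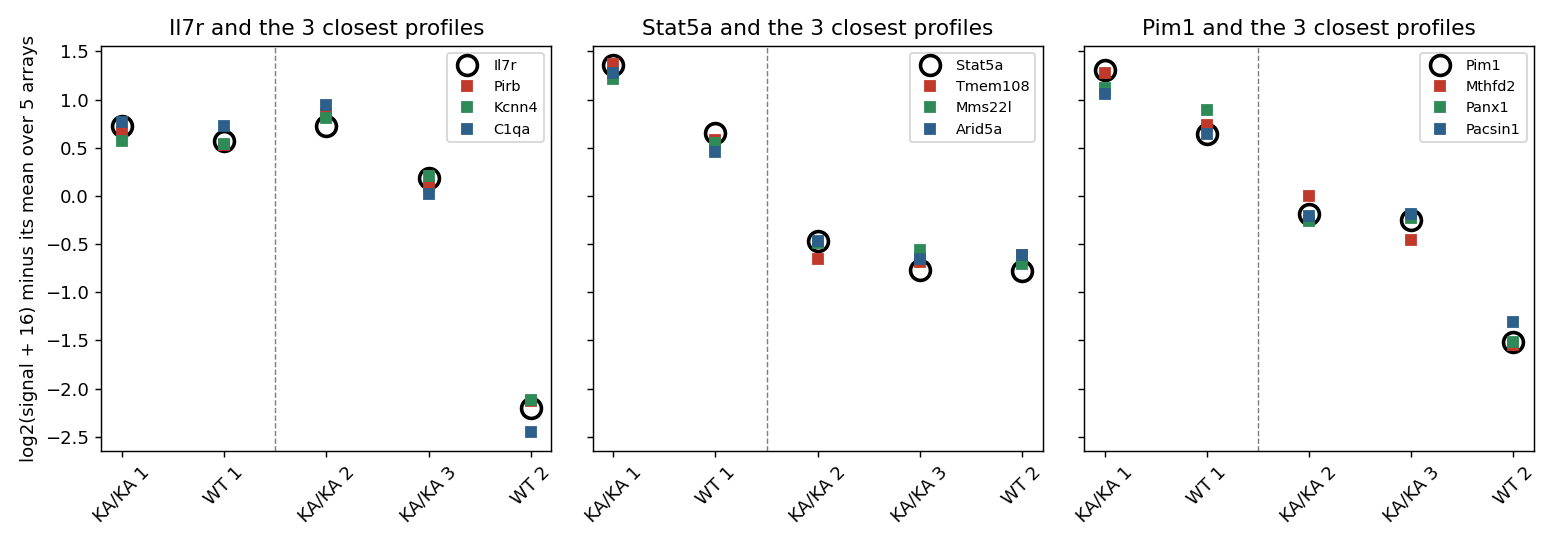
Level minus its mean over the 5 arrays, log2(signal + 16), for Il7r, Stat5a and Pim1 (open black circles) and the 3 genes closest to each (filled squares), 1 point per array. Il7r, Pirb, Kcnn4 and C1qa share the drop on WT 2, while Stat5a and its neighbours divide the marrow-like from the lung-like arrays.

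Jak1, the kinase held by Il7r and by many other cytokine receptors, did not pass either test. Probe set 1433805_at read 12.30 and 11.90 on KA/KA 1 and WT 1, and 12.22 and 12.23 on KA/KA 2 and KA/KA 3, against 12.15 on WT 2. Its difference between the sets was -0.07 ± 0.27 (marrow-like minus lung-like, adjusted p = 0.875), and those of 1433803_at and 1433804_at were 0.17 ± 0.25 and 0.44 ± 0.26. None passed. Probe set 1433804_at nevertheless did not overlap between the sets, with 9.88 and 9.81 on KA/KA 1 and WT 1, against 9.52, 9.65 and 9.18 on KA/KA 2, KA/KA 3 and WT 2. With each array centred on its median it passed (0.79, adjusted p = 0.0481). KA/KA minus WT was 0.21 ± 0.27 for 1433805_at, 0.19 ± 0.25 for 1433803_at and 0.26 ± 0.26 for 1433804_at, each close to or under its error.

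Jak3, the kinase of the γ chain, was above WT on every KA/KA array. It read 8.94 on KA/KA 1 against 7.88 on WT 1, and 8.46 and 8.33 on KA/KA 2 and KA/KA 3 against 7.74 on WT 2. All 3 KA/KA arrays lay above both WT arrays, and the differences were 1.06 in the marrow-like pair and 0.72 and 0.59 in the lung-like set. The estimate with the array set in the model was 0.83 ± 0.30 (limma, adjusted p = 0.9996), which did not pass. The sets themselves overlapped for Jak3 (0.37 ± 0.30, adjusted p = 0.378). Of the probe sets shared with Insl3, an insulin-like hormone gene that overlaps the end of Jak3, 1423021_s_at read 8.54 and 8.16 on KA/KA 1 and WT 1, and 9.31 and 9.72 on KA/KA 2 and KA/KA 3, against 8.82 on WT 2. There too each KA/KA array exceeded the WT array of its set, but the reading cannot be assigned to either gene. The other, 1427092_at, stayed between 4.19 and 4.78, close to the floor.

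Stat5a and Stat5b, neighbouring genes whose proteins are close relatives, gave 1 call between the sets, for Stat5a. Stat5a 1421469_a_at read 9.55 and 8.84 on KA/KA 1 and WT 1, against 7.72, 7.42 and 7.41 on KA/KA 2, KA/KA 3 and WT 2. The sets did not overlap, and the marrow-like level was higher by 1.74 ± 0.32 (3.34-fold, adjusted p = 0.00724). The dim probe set 1450259_a_at, below the filter, read 7.43 and 7.71 against 6.50, 5.42 and 5.70. It did not pass in the limma fit without a filter (1.70 ± 0.48, adjusted p = 0.0543). Stat5b 1422103_a_at read 10.39 and 9.96 on KA/KA 1 and WT 1, and 9.74 and 10.33 on KA/KA 2 and KA/KA 3, against 10.48 on WT 2. Its difference between the sets was -0.02 ± 0.33 (adjusted p = 0.972). The dim 1422102_a_at, below the filter, read 7.23 and 7.14 on KA/KA 1 and WT 1. On KA/KA 2, KA/KA 3 and WT 2 that probe set read 6.73, 6.62 and 6.65, without overlap. In the limma fit without a filter 1422102_a_at did not pass either (0.52 ± 0.35, adjusted p = 0.360). For KA/KA minus WT, Stat5a stood at 0.40 ± 0.32 and Stat5b at -0.07 ± 0.33. Stat5b 1422103_a_at lay below WT 2 on KA/KA 2 and KA/KA 3 (-0.75 and -0.15) and above WT 1 on KA/KA 1 (0.43). The 3 genes closest to Stat5a by profile were Tmem108 (0.119), Mms22l, a factor of replication fork repair (0.125), and Arid5a, an RNA-binding protein (0.127).

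Pim1 and Pim2, serine/threonine kinases that support growth and survival and whose genes cytokine signals induce, were higher in the marrow-like pair. Pim1 1435458_at read 11.53 and 10.86 on KA/KA 1 and WT 1, against 10.03, 9.97 and 8.70 on KA/KA 2, KA/KA 3 and WT 2. The difference between the sets was 1.80 ± 0.27 (3.48-fold, adjusted p = 0.00344). Pim1 1423006_at read 10.34 and 9.70 against 8.75, 7.73 and 6.75 on the same arrays, a difference of 2.47 ± 0.41 (5.53-fold, adjusted p = 0.00529). Pim2 read 9.92 and 9.93 on KA/KA 1 and WT 1, against 8.55, 9.23 and 8.07 (1.38 ± 0.35, 2.60-fold, adjusted p = 0.0246). For these 3 probe sets no lung-like array reached the marrow-like pair.

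Within each set the Pim1 level was higher on the KA/KA arrays. Probe set 1435458_at exceeded WT 1 by 0.67 on KA/KA 1, and WT 2 by 1.33 and 1.27 on KA/KA 2 and KA/KA 3. Probe set 1423006_at gave 0.65, and 2.00 and 0.98. With the array set in the model KA/KA minus WT was 1.03 ± 0.27 and 1.13 ± 0.41 (limma, adjusted p = 0.9996 for each), so neither passed. Pim2 was level in the marrow-like pair (-0.01) and higher by 0.48 and 1.16 on KA/KA 2 and KA/KA 3 than on WT 2. The T cell and the monocyte and macrophage sums given beside Il7r were higher on those arrays too, and their part was not tested. By profile Pim1 1435458_at was closest to Mthfd2, a mitochondrial folate enzyme (0.133), Panx1, a membrane channel (0.143), and Pacsin1, a membrane-shaping adaptor (0.149).

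**Figure D3:**
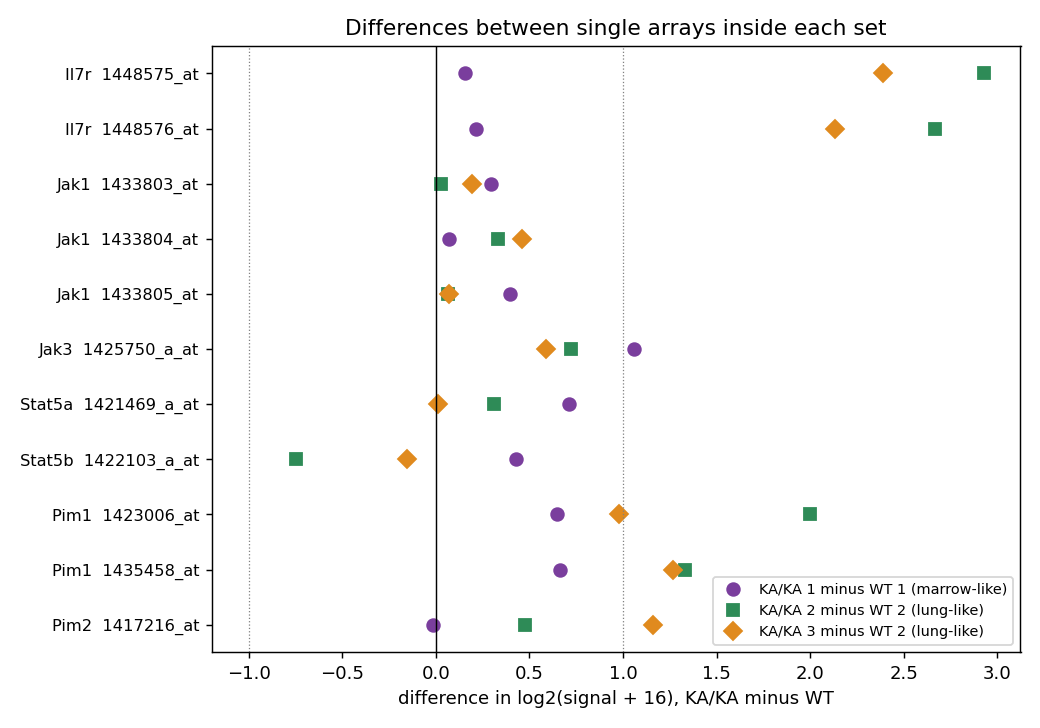
Differences in log2(signal + 16) between single arrays, KA/KA minus WT, for the 11 tested probe sets; circles are KA/KA 1 minus WT 1, squares KA/KA 2 minus WT 2 and diamonds KA/KA 3 minus WT 2, with dotted lines at 1 log2 unit. Il7r lies beyond 2 on both lung-like comparisons and near 0 in the marrow-like pair.

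Over all members, 0 of 11 probe sets passed the test of KA/KA against WT in either direction, as did 0 of 22519 in all (0% called). At an unadjusted p under 0.05 there were 5 of 11 (both of Il7r, both of Pim1, and Jak3), against 2.99% of all probe sets (673). KA/KA 1 exceeded WT 1 for 10 of 11, where 54.2% of all did, and by 1 log2 unit or more for 1 (Jak3), where 2.85% did; none was lower by as much, where 1.56% of all were. KA/KA 2 and KA/KA 3 both exceeded WT 2 for 10 of 11, where 33.5% of all did, and by 1 log2 unit or more for 3 (both of Il7r and Pim1 1435458_at), where 3.1% did. Only Stat5b was below WT 2 on both, as were 36.3% of all, and none by 1 log2 unit or more, as were 1.65%. The KA/KA and WT arrays did not overlap for 2 of 11 (Jak3 and Jak1 1433805_at), where 7.05% of all did not. Probe sets of a gene share its transcript, so these counts rest on 7 genes.

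Between the array sets, 5 of 11 tested probe sets were higher in the marrow-like pair (Il7r 1448576_at, Stat5a, both of Pim1, and Pim2), where 15.8% of all 22519 were called higher. None was called lower, where 19.3% of all were. The arrays of the sets did not overlap for 6 of 11, all higher in the marrow-like pair, where 32.3% of all were higher and 32.2% lower without overlap. Il7r 1448576_at was higher there by 2.15 ± 0.50 (4.45-fold, adjusted p = 0.0180). That call was lost without WT 2 or without WT 1 (1.22 in both cases, adjusted p = 0.0955 and 0.113), since KA/KA 1 is then set against KA/KA 2 and KA/KA 3 alone, and the value was 3.40 without KA/KA 1 (adjusted p = 0.0176). For 1448575_at the difference was 1.34 ± 0.56 (adjusted p = 0.112). It was 0.27 without WT 2 or without WT 1, 2.77 without KA/KA 1 (adjusted p = 0.0213) and 1.65 without KA/KA 2 (adjusted p = 0.00663), and so passed in the last 2 cases. The Pim2 and Pim1 1423006_at calls were also lost without WT 2 (1.02 and 2.11, adjusted p = 0.180 and 0.0650) and without WT 1 (adjusted p = 0.198 and 0.0764). Without KA/KA 1 the calls of Stat5a (1.43, adjusted p = 0.105) and Pim2 (1.86, adjusted p = 0.0738) were lost.

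**Figure D4:**
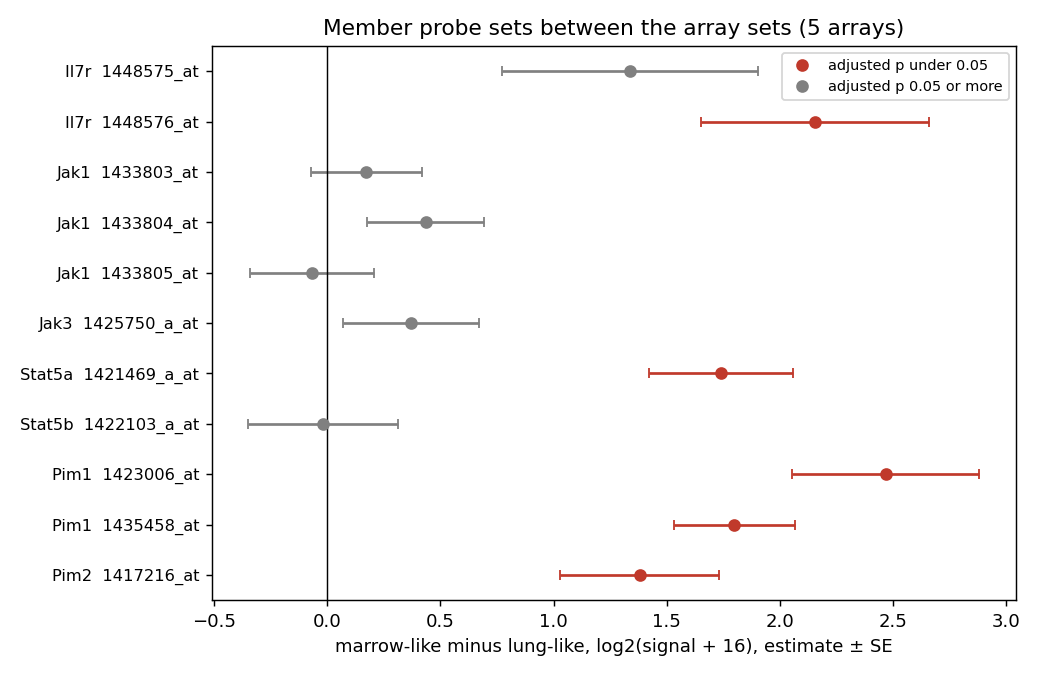
Marrow-like minus lung-like difference in log2(signal + 16) for the 11 tested probe sets, with the SE of the limma fit over 5 arrays as bars; red marks an adjusted p under 0.05. Both Pim1 probe sets, Pim2, Stat5a and 1 of the 2 Il7r probe sets are red, and Jak1, Jak3 and Stat5b lie within 0.5 of 0.

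Other genes of the pathway were counted in 6 lists of 50 genes, each gene by its probe set of highest mean, and 42 passed the filter. In KA/KA against WT 0 of 42 passed the test, and 34 had an estimate above 0, as did 51.5% of all tested probe sets. Between the sets 12 were higher and 6 lower in the marrow-like pair, where 15.8% and 19.3% of all tested probe sets were. Of these 12, 7 belong to the list of transcription factors of early B cells, which includes markers of the marrow-like pair. Il2rb, Il21r, Gfi1 and Pax5, also among the 12, passed the filter only through their marrow-like levels.

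Among the ligands, Il7 and Il15 passed the filter and neither differed between the sets (-0.64 ± 0.37 and 0.34 ± 0.32; adjusted p = 0.226 and 0.451). Il7 read 7.38 and 7.29 on KA/KA 1 and WT 1, and 8.54 and 7.68 on KA/KA 2 and KA/KA 3, against 7.80 on WT 2. Tslp, Il2, Il4, Il9 and Il21 fell below the filter. In the limma fit without a filter, Tslp (-1.99 ± 0.49, adjusted p = 0.0382) and Il4 (-2.31 ± 0.47, adjusted p = 0.0197) were lower in the marrow-like pair. Il2, Il9 and Il21 did not pass there. Tslp read 5.36 and 6.14 on KA/KA 1 and WT 1, against 6.91, 8.19 and 7.86 on KA/KA 2, KA/KA 3 and WT 2. Il4 read 4.78 and 4.45 on KA/KA 1 and WT 1, against 7.91, 7.19 and 6.15 on the same lung-like arrays. Its marrow-like levels lay close to the floor, so the size of its difference depends on the added constant. Between genotypes (KA/KA minus WT), Il15 stood at -0.30 ± 0.32 and Il7 at 0.21 ± 0.37.

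Of 6 other receptor chains tested, 2 were higher in the marrow-like pair and 1 lower, with a median of 0.69 against 0.01 over all probe sets. Il2rb, which serves interleukins 2 and 15, was higher by 2.57 ± 0.46 (adjusted p = 0.00694) and Il21r by 2.43 ± 0.49 (adjusted p = 0.0108). Their lung-like means (6.22 and 6.52) lay under the filter limit of 7.04, so both were tested only through their marrow-like levels. In the limma fit without a filter the adjusted p was 0.0171 for Il2rb and 0.0233 for Il21r. Il15ra was lower (-1.13 ± 0.29, adjusted p = 0.0260). All 6 estimates of KA/KA minus WT were above 0 (median 0.89, against 0.01 over all probe sets), and none passed. The smallest p belonged to Il2ra (1.16 ± 0.45), Il2rb (1.14 ± 0.46) and Crlf2, the partner of Il7r for Tslp (0.88 ± 0.39). Crlf2 read 10.96 on KA/KA 1 against 10.83 on WT 1, and 11.80 and 11.13 on KA/KA 2 and KA/KA 3 against 10.03 on WT 2, so WT 2 was lowest, as for Il7r.

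Of 6 other JAK and STAT genes, 1 differed between the sets. Stat3, which carries signals of interleukin 6 and its relatives, was lower in the marrow-like pair (-1.08 ± 0.30, adjusted p = 0.0326). Stat4 (1.17 ± 0.44, adjusted p = 0.0827) and Jak2 (-0.40 ± 0.27, adjusted p = 0.302) did not pass. Between genotypes the smallest p belonged to Stat3 (0.54 ± 0.30), Stat4 (0.75 ± 0.44) and Stat6 (0.34 ± 0.25), without passing.

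Negative regulators moved both ways between the sets, with 1 of 10 higher and 3 lower in the marrow-like pair (median 0.37). Ptpn6, the phosphatase SHP-1 of blood cells, was higher by 2.07 ± 0.35 (adjusted p = 0.00557). The STAT-induced inhibitors Cish (-2.04 ± 0.27, adjusted p = 0.00226), Socs2 (-2.18 ± 0.28, adjusted p = 0.00193) and Socs3 (-1.64 ± 0.35, adjusted p = 0.0136) were lower there. Cish, with the paired palindromes printed above, read 8.47 and 7.99 on KA/KA 1 and WT 1, against 10.67, 10.27 and 10.07 on KA/KA 2, KA/KA 3 and WT 2. It and Pim1, both known as STAT5 targets, thus lay on opposite sides of the array sets. In KA/KA minus WT the smallest p belonged to Socs3 (1.86 ± 0.35), Ptpn1 (0.66 ± 0.27) and Socs2 (0.62 ± 0.28), and none passed.

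Of 10 STAT5 target and survival genes, 2 were higher and 1 lower in the marrow-like pair (median -0.43). Cyclin Ccnd3 (2.08 ± 0.33, adjusted p = 0.00435) and the growth factor-induced Myc (1.52 ± 0.34, adjusted p = 0.0150) were higher. Pim3, the third kinase of the PIM family, was lower (-1.26 ± 0.34, adjusted p = 0.0306), opposite to Pim1 and Pim2. Of KA/KA minus WT, Myc (1.05 ± 0.34), Ccnd2 (0.77 ± 0.33) and Osm (0.47 ± 0.32) had the smallest p, without passing. Myc read 10.31 on KA/KA 1 against 9.85 on WT 1, and 9.42 and 9.04 on KA/KA 2 and KA/KA 3 against 7.73 on WT 2.

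Transcription factors that act with Il7r in early B cells were higher in the marrow-like pair for 7 of 8 (median 2.83), with 0 lower. Tcf3 (3.52 ± 0.33), Ebf1 (3.45 ± 0.41), Gfi1 (3.14 ± 0.41), Ikzf1 (3.00 ± 0.47) and Pax5 (2.66 ± 0.49) led, with adjusted p between 0.000687 and 0.00742. Gfi1 and Pax5, with lung-like means of 6.95 and 6.20, passed the filter limit of 7.04 only through their marrow-like levels. In the limma fit without a filter their adjusted p was 0.00474 and 0.0175. Ebf1 and Pax5 are also among the early B-lineage genes by which the marrow-like pair was described above. Spi1 and Gabpa, which bind the Il7r gene in mice, followed at 1.22 ± 0.36 and 0.95 ± 0.28. Foxo1, which switches on Il7r in mouse B cells, did not pass (0.77 ± 0.36, adjusted p = 0.145). In KA/KA minus WT, Ikzf1 (1.12 ± 0.47), Spi1 (0.78 ± 0.36) and Gfi1 (0.67 ± 0.41) had the smallest p, and none passed.

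**Figure D5:**
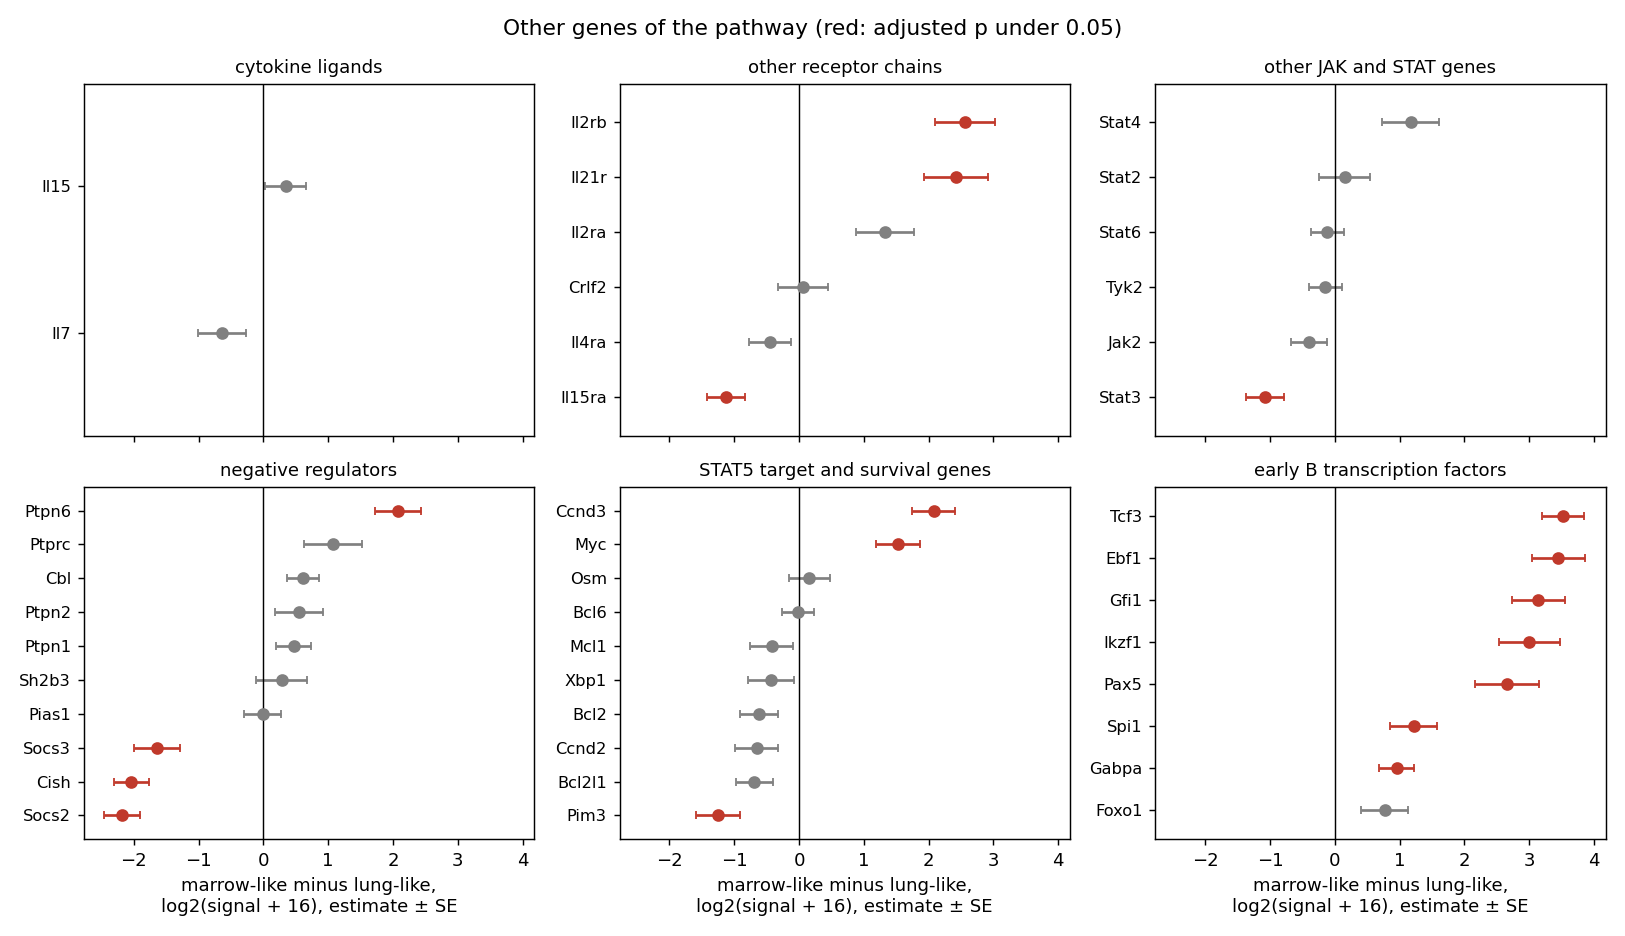
Marrow-like minus lung-like difference in log2(signal + 16) for the 42 tested genes of the 6 pathway lists, with the SE of the limma fit over 5 arrays as bars; red marks an adjusted p under 0.05. The early B transcription factors lie to the right, and Cish, Socs2 and Socs3 to the left.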

How the data were processed

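The authors deposited 1 table of intensity values for 45101 probe sets on 5 Affymetrix mouse arrays. Per the submitters' processing notes the tool was MAS5; its version is not given in the sources used here. The trimmed mean (2% off each end) was 500 on all arrays and signals reached 21977 to 40821, so the deposited intensity values were taken as linear, although the series text speaks of a log2 transformation. Detection calls were not used here, and the transcript level of the mutated gene was not analysed here.

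log2(signal + 16) was computed, 64 control probe sets were left out, and 22519 probe sets, those whose mean level reached the median, were tested. The median signal was 95.7 to 128 per array. Symbols came from the platform annotation (34958 probe sets with 1 symbol, 932 with several, left unnamed). limma 3.58.1 in R 4.3.3 (lmFit, eBayes with trend) fitted genotype and array set together, two-sided; p-values were adjusted by Benjamini-Hochberg across the tested probe sets, with a threshold of 0.05. Array sets were split at a median log2 signal of 10 over 24 poly-A control probe sets. The fit and its script were tested on simulated data. With 3 against 2 arrays there are too few splits for an exact permutation test to pass, so none was run.

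The members and lists were chosen with earlier results of these data known. Genes named were all members, the genes of each list past the threshold or else the 3 of smallest p in each comparison, and the 3 closest profiles for members ranging over 2 or more log2 units. Alternatives covered scaling, the added constant, the filter, the moderation, the choice of probe sets, the array set, the replicate number as a block and each array left out. Comparisons of single arrays under other scalings and constants were added after seeing the data.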

Additional observations from a re-analysis of the deposited data

How the results depend on the processing

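The genotype comparison called 0 probe sets in the main setting and 3 with the replicate number as a block in place of the array set, all higher in KA/KA and none a member; leaving out an array gave 0 to 6 (6 without KA/KA 2, 2 without KA/KA 3), where a lone array is assumed to vary like the rest. Member calls in this comparison were 0 under every alternative, the replicate block included. The labels' numbers give only 2 pairs: deviations from the group means correlated at 0.87 and 0.65 across probe sets for the same numbers, and at 0.77 for KA/KA 3 with WT 2. With 2 WT arrays, the deviation of WT 1 is that of WT 2 with its sign turned, and the 2 lie in different array sets. These correlations therefore cannot tell pairing by number from the split into array sets. Between the array sets, the main setting called 7885 probe sets, the upper-quarter filter 3758 and the probe set of highest mean for each gene 4064, both of which test fewer, and leaving out an array gave 3123 to 8572. Member calls, 5 in the main setting, were 3 with the upper-quarter filter and 3 with the highest probe set of each gene, 4 with shared probe sets left out, 6 with median centring (Jak1 1433804_at gained), and 2 to 6 with an array left out. Median centring moved the median set difference of all probe sets to 0.36 (0.13 with quantile normalisation, against 0.01), and its calls split into 6017 higher and 3353 lower, against 3547 and 4338. It also turned Stat5b 1422103_a_at to 0.33 and Jak1 1433805_at to 0.28. With single arrays left out, set differences ran from -0.52 to 0.36 for Stat5b and from -0.25 to 0.0729 for Jak1 1433805_at. In KA/KA minus WT, without single arrays, Stat5b ran from -0.45 to 0.43 and Pim2 from -0.0128 to 0.82. The causes of these reversals were not tested. No detection calls were used, so dim values such as those of 1427092_at have no order.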
